A study of Mus musculus with 6 samples.

Results

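The genes described here encode the proteins of the cytosolic ribosome in mouse regulatory T cells (Tregs), a CD4+ lineage that depends on the transcription factor Foxp3 and limits immune responses. Members were protein-coding genes of the GENCODE M21 annotation whose symbol begins with Rpl or Rps followed by a digit, together with Rpsa, Rplp0, Rplp1 and Rplp2. Pseudogenes, genes with -ps in the symbol (6 of which are annotated as protein-coding) and the Rps6k kinase genes were left out. The rule found 86 of the 49315 genes in the count table, of which 52 belong to the large subunit and 33 to the small subunit. The remaining gene, Rps19bp1, encodes a protein that binds ribosomal protein S19 and is not itself a ribosomal protein.

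Ribosomal proteins assemble with ribosomal RNA into a small subunit, which reads the mRNA, and a large subunit, which joins the amino acids. Each protein is present in about equal number in a ribosome, and their mRNAs are among the most abundant in lymphocytes. Most of these mRNAs begin with a C followed by a run of C and T, the 5′ terminal oligopyrimidine (TOP) motif, through which the kinase complex mTORC1 and the RNA-binding protein Larp1 control their translation and stability. Several members have paralogs that replace them in some tissues, and most have many processed pseudogenes in the genome.

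Bulk RNA-seq was performed on Tregs of the skin and of skin-draining lymph nodes (SDLNs) from 9-day-old Foxp3-GFP mice, in which a fluorescent protein marks Foxp3-expressing cells. No group received a treatment, and both carry the reporter. Cells of several mice were pooled into each sample, enriched for CD45 on magnetic beads and sorted as live CD45+ CD4+ Foxp3-EGFP+ cells. The count table held 3 libraries of each population, named here skin A, B and C and SDLN A, B and C, and the groups rest on the sample titles because the tissue field reads skin for the SDLN samples too. P-values measure the spread between these pooled samples.

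Total counts were 3748669 to 11741784 in the skin libraries and 47243498 to 116158706 in the SDLN libraries. A gene with 3 counts or fewer in a library is called at the floor. Counts of the gene that defines the sorted cells did not follow the labels in every library. Foxp3 was at 105, 139 and 37.9 CPM (counts-per-million, relative to all counts in a library) in SDLN A, B and C and at 28.1 CPM in skin B. It had 0 counts in skin A and 1 count in skin C, and Cd4, the co-receptor used in the sort, had 0 and 2 counts there. The 10 genes of the Treg and T cell list varied between these libraries. Cd3e, a chain of the T cell receptor complex, had 0 counts in skin A and was at 150 and 293 CPM in skin B and C, against 882, 1063 and 578 CPM in SDLNs. Cd3g was at 888, 663 and 607 CPM in skin and at 1209, 1132 and 1188 CPM in SDLNs, and Cd3d was at 198, 355 and 276 CPM in skin and at 848, 677 and 926 CPM in SDLNs. The inhibitory receptor gene Ctla4 was at 1181, 1322 and 796 CPM in the skin libraries, against 520, 583 and 353 CPM in SDLNs, and the T cell receptor constant gene Trac was at 217, 944 and 973 CPM in skin and at 1246, 1204 and 1427 CPM in SDLNs. Il2ra, the IL-2 receptor alpha chain, was at 2232, 1137 and 534 CPM in skin and at 1062, 1330 and 748 CPM in SDLNs. Icos was at 751, 1416 and 1698 CPM in skin and at 742, 891 and 658 CPM in SDLNs. Ikzf2 was at 110, 2330 and 1458 CPM in skin and at 1019, 1404 and 865 CPM in SDLNs. The means of Il2ra, Icos, Ikzf2 and Ctla4 were higher in skin, and those of the other listed genes were lower. The 10 genes summed to 5577, 8502 and 6635 CPM in skin and to 7084 to 8960 CPM in SDLNs, with 7, 10 and 8 over the floor in skin A, B and C and all 10 in each SDLN library. Genes of the macrophage and dendritic cell list (18 genes) summed to 35679 to 63284 CPM in the libraries labelled skin Treg and to 479 to 812 CPM in the SDLN libraries, with 16, 18 and 15 of them over the floor in skin A, B and C, while SDLN A, B and C had 16, 16 and 17 over it. Immediate-early and heat-shock genes that respond to tissue digestion (16 genes) summed to 14811 to 31023 CPM and 4769 to 6561 CPM. The B cell list (6 genes) summed to 586 to 861 CPM in skin and to 1473 to 1712 CPM in SDLNs, with 1, 1 and 2 genes over the floor in skin A, B and C and all 6 in each SDLN library. Nearly all of these counts were of Ighm, and Cd79a and Ms4a1 had 0 counts in every skin library. The haemoglobin genes that mark erythroid cells (4 genes) summed to 137 to 683 CPM in skin and to 57.3 to 119 CPM in SDLNs. Neither list overlapped between tissues. The keratinocyte genes Krt5 and Krt14 had 0 CPM in every library. The part of these differences in the results below was not tested, and each main result is also given with skin B as the only skin library.

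Ribosomal protein mRNA made up a smaller share of the libraries labelled skin Treg than of the SDLN libraries. The summed counts of the 86 members were 2.97%, 2.13% and 1.75% of the total in skin A, B and C. The SDLN libraries held 4.39%, 3.46% and 3.38% in the same order. Every skin library lay below every SDLN library, and no group overlap was seen. The means were 2.28% ± 0.627 and 3.74% ± 0.557 (SD, n = 3 each), so that skin held 61.0% of the SDLN share. An exact two-sided permutation test gave p = 0.10, below which 3 against 3 libraries cannot go. Skin B alone held 56.9% of the SDLN mean. When the genes of the myeloid and digestion lists were taken out of the library totals, an alternative chosen after the data were seen, skin held 65.4%. Leaving out 1 library in turn gave 51.8% to 68.2%. In bulk samples, fewer cells of a type and less RNA per cell cannot be told apart.

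The share of both subunits was lower in skin to a like extent. Large subunit genes took 1.73%, 1.13% and 1.05% of the counts in skin A, B and C, and the SDLN libraries gave 2.49%, 1.99% and 1.92%. Small subunit genes took 1.25%, 0.994% and 0.699% in skin and 1.90%, 1.47% and 1.45% in SDLNs. Neither subunit overlapped between tissues. The ratio of large to small subunit counts was 1.38, 1.14 and 1.51 in the skin libraries, which lay on both sides of the SDLN values of 1.31, 1.36 and 1.33. Its means were 1.34 ± 0.185 and 1.33 ± 0.0237 (SD, n = 3 each; exact two-sided permutation p = 0.90), a difference of 0.011 that was smaller than the spread between skin libraries. In skin B alone the ratio was lower than the SDLN mean by 0.19, the difference (skin minus SDLN) being -0.19.

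**Figure D1:**
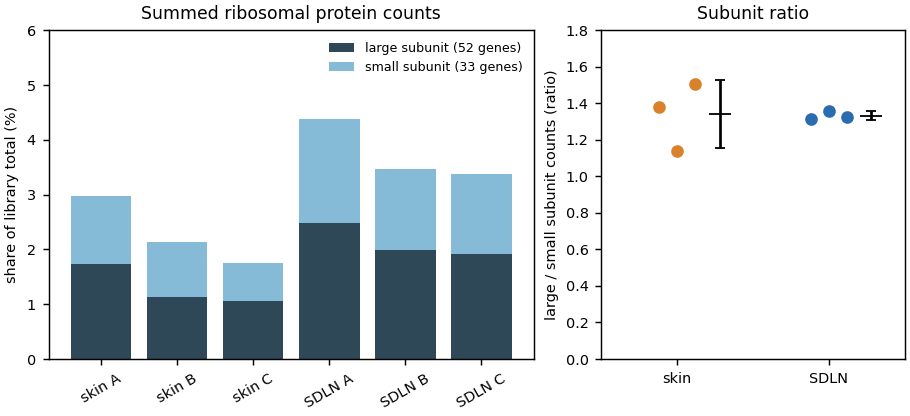
The left panel stacks the summed counts of large and small subunit genes as a percentage of each library's total, and the right panel plots the ratio of large to small subunit counts per library, with the mean and SD in black. All 3 skin bars (1.75% to 2.97%) are shorter than all 3 SDLN bars (3.38% to 4.39%), while the skin ratios spread on both sides of the SDLN ratios.

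Within that lower share, few single genes passed the test. In a quasi-likelihood fit of the whole table with edgeR, 84 members were tested and 3 were called lower in skin, Rpl7l1, Rpl39l and Rps18, against 45.3% of all 13572 genes tested. No member was called higher by edgeR, against 1.04% of all genes. At an unadjusted p under 0.05, 8 members were lower and 0 higher, against 6327 lower and 201 higher of the 13572 genes. DESeq2 called 15 members lower (17.9%), against 51.9% of genes, and 0 higher. The log2 fold change (skin over SDLN) was negative for 83 of the 84 members, with a median of -0.83 and quartiles of -1.17 and -0.51. Upper quartile scaling turned the median of members to 5.90, while that of all genes was -1.24. The median of all genes tested was -2.21, and it was -0.53 over genes with an SDLN mean of at least 100 CPM, among which the 76 members had a median of -0.79. Of all genes tested, 5878 were at the floor in every skin library. With these set to their bound of 3 counts the median of all genes was -1.29, and that of members stayed at -0.83. The median SE of a member was 0.74, about as large as the median change.

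The lower skin values of members were set beside those of all genes. Among genes with at least 100 CPM in SDLNs, 2 of 76 members (2.63%) were called lower, against 8.95% of all 2336 such genes. The libraries of skin and SDLN did not overlap, with skin lower, for 34 of the 84 members (40.5%), against 53.6% of all genes tested, and none did so with skin higher, against 2.39%. Over members with at least 100 CPM, 30 (39.5%) did not overlap, against 29.2% of such genes. Of the large subunit genes, 24 of 50 tested did not overlap, and of the small subunit genes 9 of 33. Members lay below every SDLN library in 48 cases in skin A (57.1% of 84), in 67 in skin B (79.8%) and in 75 in skin C (89.3%), against 83.2%, 71.5% and 75.7% of all genes tested.

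The number called depended on the skin libraries entered. It was 12 without skin A, 6 without skin B and 6 without skin C, against 42.5%, 48.9% and 46.5% of all genes tested in those fits. With skin B as the only skin library, whose spread was then taken from the SDLN libraries, 28 members (33.3%) were called lower and 0 higher, against 46.0% of genes lower, and the median log2 fold change of members was again -0.83. Rpl7l1 and Rpl39l were called in each of these 4 fits, and Rps18 only in the fit without skin B.

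**Figure D2:**
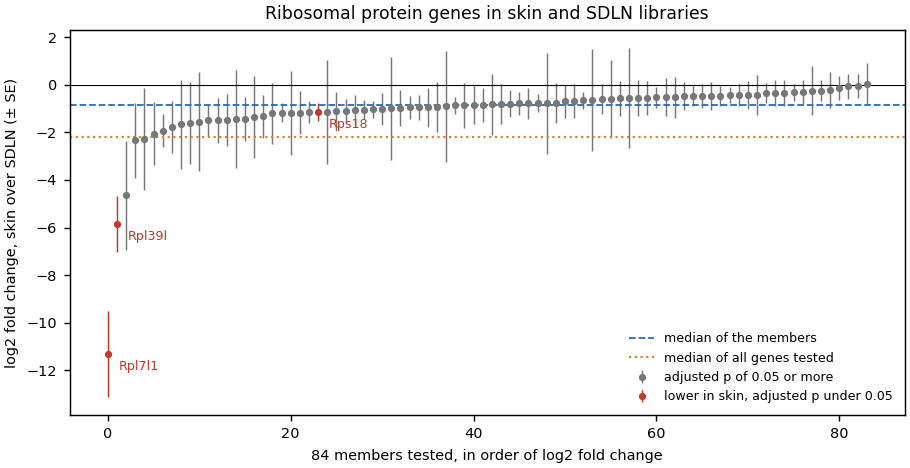
Each point is the edgeR log2 fold change of a member (skin over SDLN) with its SE, in order of size, and the 3 called members are red. Nearly all points lie below 0, close to the median of the members (-0.83, dashed), and the lowest fitted values are those of Rpl7l1 (-11.3), Rpl39l (-5.85) and Rps19bp1 (-4.65).

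Rps18 encodes a protein of the small subunit head. Its level was 611, 711 and 329 CPM in skin A, B and C and 1235, 1047 and 1191 CPM in SDLN A, B and C, without overlap. It fell by 1.14 on the log2 scale (SE 0.37, edgeR adjusted p = 0.0496). That call sat at the threshold and was lost in 14 of 18 other fits, among them 5 of the 6 that left out 1 library. Exons of Rps18 overlap those of Vps52 on the other strand, which had 0, 53 and 0 counts in skin and 14231, 8551 and 4177 in SDLNs. The strand setting of the counting is not stated, so the value of Rps18 is uncertain where the genes overlap.

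Rpl7l1 encodes a paralog of ribosomal protein L7 that acts in the assembly of the large subunit. It had 24697, 16392 and 9029 counts in the SDLN libraries, a mean of 209.6 CPM ± 17.2 (SD, n = 3), and 0, 1 and 1 counts in skin A, B and C. The summed counts of 2 in skin and 50118 in SDLNs gave a rate 2602 times higher in SDLNs, with an exact 95% interval of 720 to 21484 that covers counting error only (edgeR adjusted p = 0.00419). With the column letter as a block the call was lost (edgeR adjusted p = 0.0652). Near-absence from skin was not particular to Rpl7l1. Among the 2336 genes tested with an SDLN mean of at least 100 CPM, 154 had 3 counts or fewer in each skin library. Of the 76 members at that level, 1 did so. The parent of Rpl7l1, Rpl7, a large subunit protein, was at 789, 304 and 43.5 CPM in skin. In SDLNs it was at 607, 524 and 430 CPM, with overlapping libraries.

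Rpl39l, a paralog of Rpl39 known for its expression in testis, was a rare transcript in both tissues. It had 2, 0 and 0 counts in skin and 664, 428 and 253 counts in SDLNs, or 5.72, 5.88 and 5.36 CPM. The ratio of the summed rates was 69.8, with an exact 95% interval of 19.3 to 577 (edgeR adjusted p = 0.00928). The call was lost in 1 of 16 other fits, that with upper quartile scaling (edgeR adjusted p = 0.49). Rpl39 itself, at the exit of the peptide tunnel, was at 162, 15.5 and 35.4 CPM in skin and 157, 110 and 44.7 CPM in SDLNs and overlapped.

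Letters around the annotated start of these genes, and of Rps27 as the member with most counts per kilobase, are shown because the TOP motif lies there. The sequences are from RefSeq on GRCm38.p6 and run from 60 bases before the start to 19 after it, 5′ to 3′ on the gene's strand, with the longest run of C and T within 20 bases of the start in capitals.
Rps18, chr17:33955646-33955725, minus strand: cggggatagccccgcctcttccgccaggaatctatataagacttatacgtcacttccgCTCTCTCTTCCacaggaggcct
Rps27, chr3:90213629-90213708, minus strand: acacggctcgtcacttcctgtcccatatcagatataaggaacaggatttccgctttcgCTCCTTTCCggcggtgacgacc
Rpl39l, chr16:10170168-10170247, plus strand: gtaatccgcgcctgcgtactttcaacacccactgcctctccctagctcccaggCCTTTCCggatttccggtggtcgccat
Rpl7l1, chr17:46782637-46782716, minus strand: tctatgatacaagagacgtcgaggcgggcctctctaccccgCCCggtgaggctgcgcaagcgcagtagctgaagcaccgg
The run spans the start in Rps18 (11 letters) and Rps27 (9 letters), ends before it in Rpl39l (7 letters) and has 3 letters in Rpl7l1.

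Promoter windows (250 bases before to 50 after the start) were found for 66 of the 86 members. A C at the start followed by at least 4 C or T occurred in 14 of them (21.2%), against 3.01% of all 27025 genes in that table. Within 20 bases of the start, a C followed by at least 5 C or T, a looser search chosen after the data were seen, occurred in 42 members (63.6%) and 33.3% of all genes. CCGGAAG, on either strand, was found in 26 members (39.4%) against 9.93% of all genes, and ATGGCGG in 11 (16.7%) against 4.69%. TATAAA on either strand was found in 7 members (10.6%) against 15.7%, and between 20 and 40 bases before the start in 1 member (1.52%) against 2.31%. Fold changes of members with and without the letters are given without a test. The median log2 fold change was -0.86 in the 14 with the strict start motif and -0.80 in the 50 tested members without it, and -0.76 in the 26 with CCGGAAG and -0.91 in the 38 without. With the looser run it was -0.84 (42 members) and without it -0.82 (22 members). With ATGGCGG it was -0.95 (11 members) and without it -0.82 (53 members). With TATAAA it was -0.82 (7 members) and without it -0.86 (57 members), and the 1 member with TATAAA 20 to 40 bases before the start had -0.25.

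The P stalk, formed by Rplp0, Rplp1 and Rplp2, recruits the elongation factors to the large subunit. Rplp0, a common reference gene for expression, was at 1193, 850 and 1323 CPM in skin A, B and C and 2281, 1828 and 2031 CPM in SDLN A, B and C. All skin values were lower, with a log2 fold change of -0.87 (SE 0.35, edgeR adjusted p = 0.11). Without skin C the log2 fold change was -1.36 and was called (edgeR adjusted p = 0.00801). It was called too with skin B as the only skin library, with library size only, with drawn-down libraries, with the column letter as a block and by DESeq2. Rplp1 was at 548, 412 and 182 CPM in skin and 459, 301 and 379 CPM in SDLNs, with skin libraries above and below the SDLN range. Its log2 fold change was -0.14 (SE 0.52), and the sign turned with the scaling. Rplp2 was at 270, 98.9 and 95.8 CPM in skin and 305, 236 and 195 CPM in SDLNs, and overlapped (log2 fold change -0.83, SE 0.71; called with skin B as the only skin library, -1.26).

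Rpl5 and Rpl11 form with 5S ribosomal RNA the particle that binds Mdm2 and restrains it when ribosome assembly is disturbed. Rpl5 was at 597, 377 and 249 CPM in skin and 648, 664 and 618 CPM in SDLNs, without overlap (log2 fold change -0.78, SE 0.37, edgeR adjusted p = 0.17). Rpl11 was at 288, 252 and 263 CPM in skin and 416, 337 and 262 CPM in SDLNs, and skin A and C lay above the lowest SDLN library (log2 fold change -0.35, SE 0.53). Neither passed the test with all libraries, and without skin A Rpl5 was called (log2 fold change -1.05, edgeR adjusted p = 0.0322).

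Small subunit genes with known further roles had lower means in skin, and none of the 3 below passed the test with all libraries. Rpsa, the laminin receptor precursor, was at 17.9, 168 and 231 CPM in skin A, B and C and 625, 427 and 562 CPM in SDLNs, and did not overlap. Its log2 fold change was -1.77 (SE 1.09, edgeR adjusted p = 0.30) with all libraries and -1.41 without skin A (edgeR adjusted p = 0.0299), and it was called too with skin B as the only skin library. Rps6, the subunit protein phosphorylated downstream of mTORC1, was at 668, 670 and 431 CPM in skin and 860, 665 and 606 CPM in SDLNs (log2 fold change -0.32, SE 0.37), and overlapped. Rps27a, made as a fusion with ubiquitin, was at 453, 308 and 60.9 CPM in skin and 437, 378 and 252 CPM in SDLNs and overlapped (log2 fold change -0.57, SE 0.73).

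Per kilobase of transcript, the same 3 members led in both tissues. Rps27 had 1455 ± 1100 CPM per kilobase in skin and 2661 ± 751 in SDLNs (SD, n = 3 each). Rpl32 had 1221 ± 332 and 2396 ± 713, and Rps14 had 1335 ± 832 and 2322 ± 592. Among these, the levels in SDLNs lay within 1 SD of each other. In CPM, Rpl32 was at 773, 681 and 440 in skin and 1587, 1277 and 852 in SDLNs, without overlap (log2 fold change -1.04, SE 0.34, edgeR adjusted p = 0.0520). It was called without SDLN C (-1.32, edgeR adjusted p = 0.0316), with TMMwsp and by DESeq2. Rps14, which lies close to the mRNA path, was at 358, 697 and 1336 CPM in skin and 1444, 1007 and 1707 CPM in SDLNs and overlapped (log2 fold change -0.66, SE 0.71). Without skin C its log2 fold change was -1.61 and without skin A -0.42, and neither was called. Rps27 was at 933, 354 and 219 CPM in skin and 1206, 845 and 703 CPM in SDLNs, where skin A overlapped (log2 fold change -1.09, SE 0.48, edgeR adjusted p = 0.13). It was called without skin A (-1.69, edgeR adjusted p = 0.0211) and with skin B as the only skin library.

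Rpl13, a large subunit gene, is added because its adjusted p came next after that of Rpl32, a choice made after its values were seen. It was at 538, 570 and 272 CPM in skin and 1245, 985 and 752 CPM in SDLNs, without overlap (log2 fold change -1.18, SE 0.40, edgeR adjusted p = 0.0569). It was called without skin B (-1.48, edgeR adjusted p = 0.0484), with TMMwsp, with drawn-down libraries and by DESeq2.

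After Rpl7l1 and Rpl39l, the lowest fitted changes belonged to members with few counts in some skin libraries. Rps19bp1 had 0, 0 and 28 counts in skin and a mean of 32.3 CPM ± 8.68 (SD, n = 3) in SDLNs (log2 fold change -4.65, SE 2.29, edgeR adjusted p = 0.18). Without skin C, the only skin library with counts, it was called (edgeR adjusted p = 0.00418), as it was with skin B as the only skin library, by DESeq2 and by voom. Rpl31 was at 50.2, 106 and 0.664 CPM in skin and 272, 207 and 258 CPM in SDLNs (log2 fold change -2.34, SE 1.60). Rpl27a was at 0, 16.5 and 32.9 CPM in skin and 127, 92.9 and 65.6 CPM in SDLNs (log2 fold change -2.28, SE 2.16). Rpl31 was called with skin B as the only skin library and by voom, and Rpl27a with skin B as the only one. The large SEs go with values that differed between skin libraries. The one positive change was that of Rps10, a small subunit protein, at 316, 85.0 and 99.6 CPM in skin and 154, 123 and 144 CPM in SDLNs, where skin A was highest and skin B and C lowest (log2 fold change 0.036, SE 0.86). Without skin A its log2 fold change was -0.59.

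**Figure D3:**
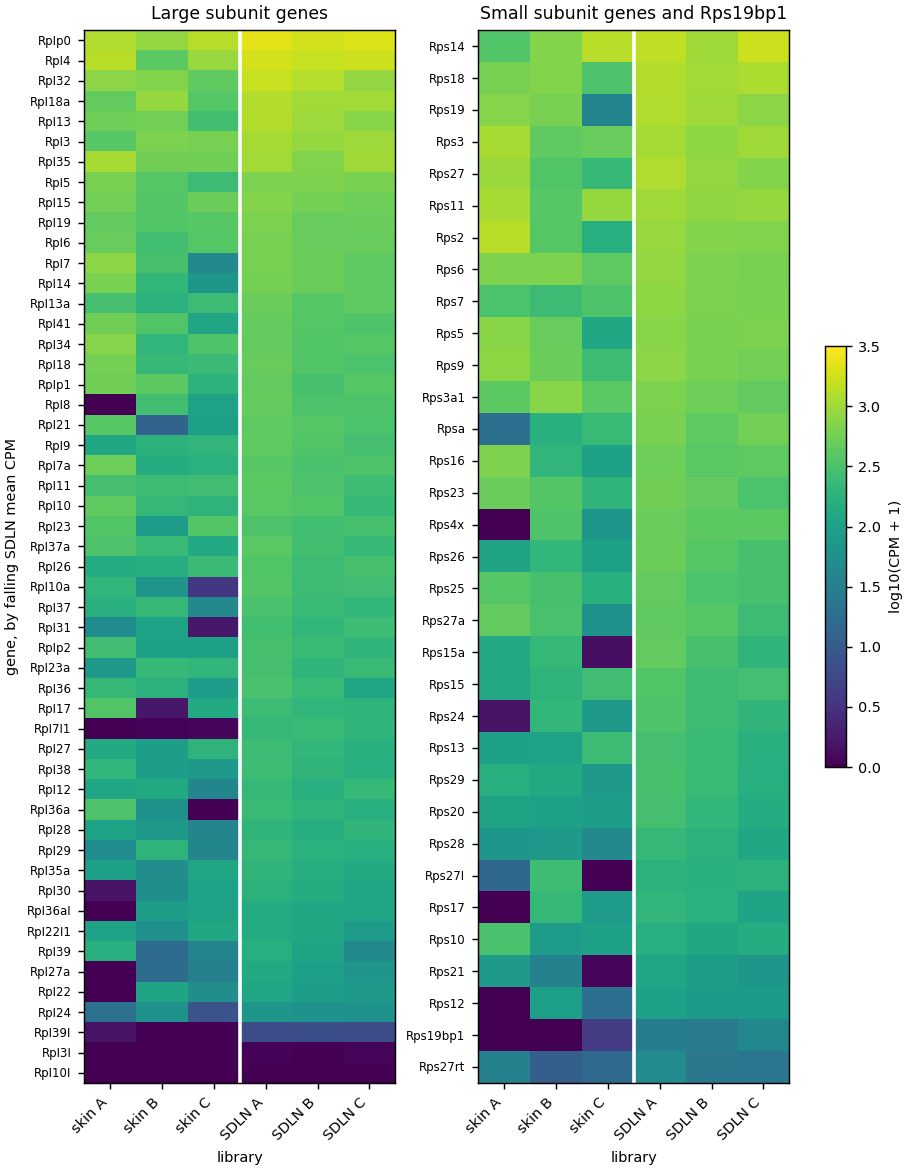
The level of 85 members as log10(CPM + 1) in the 6 libraries, large subunit genes on the left and small subunit genes with Rps19bp1 on the right, ordered by SDLN mean. The SDLN columns form smooth gradients, and the skin columns hold dark cells in different rows, such as Rpl8 and Rps4x in skin A and Rps15a and Rpl36a in skin C.

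Single members dropped out of single skin libraries. Over the floor were 72, 81 and 78 of the 86 members in skin A, B and C, against 85, 84 and 85 in the SDLN libraries. In all 3 skin libraries 68 members were over the floor, in 2 of them 13, in 1 of them only Rps19bp1, and in none Rpl7l1, Rpl39l, Rpl3l and Rpl10l. The 14 members at the floor in 1 or 2 skin libraries had at least 297 counts in another, Rps19bp1 excepted. Rps4x, an X-linked small subunit gene, had 0 counts in skin A, 4057 in skin B and 642 in skin C. Rpl8, near the peptidyl transferase centre, had 0, 3240 and 916. The small subunit genes Rps15a and Rps24 had 488, 2470 and 3 counts and 2, 2411 and 706 counts, and Rpl36a had 1230, 710 and 0. Which library lacked the gene thus differed between members. In the SDLN libraries these 5 had means of 194 to 439 CPM. With all libraries thinned to the smallest total, 67 members were over the floor in all 3 skin libraries.

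The share of genes over the floor in all skin libraries was set beside that of other protein-coding genes, as a description without a test. Classes of SDLN level were used, but levels were not matched within a class. Median levels in SDLN A were 242 CPM for members and 153 CPM for others at 100 to 300 CPM. At 300 to 1000 CPM they were 540 and 425 CPM, and at 10 to 100 CPM they were 101 and 36.1 CPM. From 1000 CPM they were 1516 and 1551 CPM. At 100 to 300 CPM in SDLNs, 21 of 28 members (75.0%) and 463 of 1713 other genes (27.0%) had more than 3 counts in all 3 skin libraries. At 300 to 1000 CPM these were 39 of 42 members (92.9%) and 284 of 440 other genes (64.5%). From 1000 CPM, all 6 members and 78 of 81 others (96.3%) did so, and at 10 to 100 CPM 2 of 7 members (28.6%) and 5.80% of 6017 others.

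**Figure D4:**
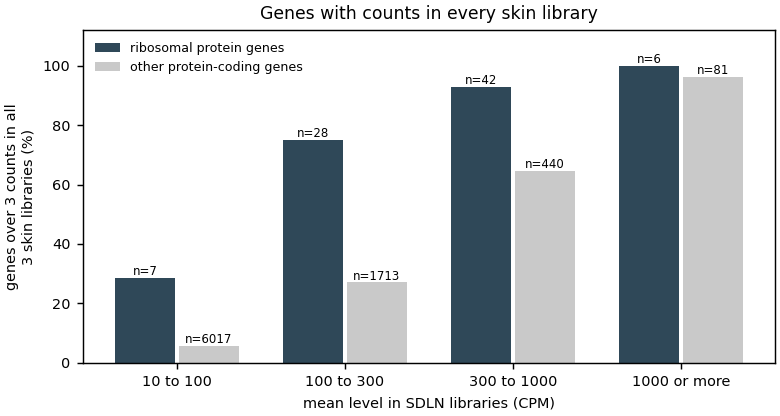
The percentage of genes with more than 3 counts in all 3 skin libraries, by mean SDLN level, for ribosomal protein genes (dark) and other protein-coding genes (light), with the number of genes above each bar. Dark bars are higher in every class, most so at 100 to 300 CPM (75.0% against 27.0%). Levels are not matched within a class.

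The spread between skin libraries is given by class of SDLN level, without a test and without matching of levels within a class. At 100 to 300 CPM in SDLNs the median coefficient of variation between skin libraries was 63.3% for members and 113% for other protein-coding genes. At 300 to 1000 CPM it was 48.8% and 79.6%, and from 1000 CPM it was 42.3% for the 6 members and 39.6% for the 81 others. Between SDLN libraries it was 11.6% to 21.3% for members and 17.3% to 20.5% for other genes in these classes. Across the 83 members with at least 10 CPM in SDLNs, log2(CPM + 1) correlated with a Pearson's r of 0.960 to 0.992 between SDLN libraries, 0.603 to 0.750 across the tissues and 0.455 to 0.551 between skin libraries. Each r is taken across genes, which are no independent replicates, and the libraries differ in depth. Across the 2234 other protein-coding genes with at least 100 CPM in SDLNs, r between skin libraries was 0.317 to 0.407, and as the genes were taken from different level ranges these values are not matched to those of members. Across the 76 members, the log2 fold change had an r of -0.0041 with GC content, -0.14 with transcript length and 0.079 with SDLN level.

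In some paralog pairs single skin libraries lacked a copy, as they did for other members above. Rps27 and Rps27l are shown because their reads can be told apart, whereas the retrogene Rps27rt has a coding sequence of 252 bases that is identical to that of Rps27. The coding sequences are from GENCODE M21 on GRCm38, and capitals in Rps27l mark the 60 bases that differ from Rps27.
Rps27, gene at chr3:90212522-90213651, minus strand: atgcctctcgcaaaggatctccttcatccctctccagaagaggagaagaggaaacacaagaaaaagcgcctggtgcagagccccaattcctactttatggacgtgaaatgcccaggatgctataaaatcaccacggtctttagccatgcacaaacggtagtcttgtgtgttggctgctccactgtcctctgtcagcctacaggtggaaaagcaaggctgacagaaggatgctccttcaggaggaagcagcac
Rps27l, gene at chr9:66946086-66949516, plus strand: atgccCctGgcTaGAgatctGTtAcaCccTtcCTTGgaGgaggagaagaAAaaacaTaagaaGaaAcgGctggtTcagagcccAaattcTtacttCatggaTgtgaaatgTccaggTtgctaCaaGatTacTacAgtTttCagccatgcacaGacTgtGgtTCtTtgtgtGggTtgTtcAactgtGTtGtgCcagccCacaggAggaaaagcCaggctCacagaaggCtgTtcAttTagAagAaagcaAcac
Rps27l, which is induced by p53, had 53, 3019 and 0 counts in skin A, B and C, or 14.1, 257 and 0 CPM, and 175, 165 and 177 CPM in SDLNs. Skin B was above and skin A and C were below all SDLN libraries. Rps27rt was at 33.9, 10.6 and 14.7 CPM in skin and 48.1, 23.3 and 22.4 CPM in SDLNs, and these counts may belong in part to Rps27.

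Rpl22, which is dispensable for most cells but needed in developing T cells, was at 0, 109 and 52.6 CPM in skin and 114, 87.0 and 78.2 CPM in SDLNs. Its paralog Rpl22l1 was at 104, 55.7 and 126 CPM in skin and 141, 120 and 83.2 CPM in SDLNs, so that skin A held counts of the paralog alone. The coding sequences are identical at 66.9% of aligned positions. Rpl36a was at 328, 60.5 and 0 CPM in skin and 238, 189 and 155 CPM in SDLNs, and Rpl36al (87.7% identical) was at 0, 86.8 and 104 CPM in skin and 141, 121 and 114 CPM in SDLNs. Each copy was thus at 0 in a different skin library.

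Rpl3l, a paralog known from muscle, and Rpl10l, one known from testis, were at or near 0. Rpl3l had 11, 0 and 5 counts in SDLN A, B and C and 0 in every skin library, and Rpl10l had 0 in all 6. A count of 0 allows up to 3 counts, or 0.800, 0.255 and 0.332 CPM in skin A, B and C. Their parents were abundant. Rpl3, which reaches close to the catalytic centre, was at 393, 645 and 601 CPM in skin and 1058, 892 and 978 CPM in SDLNs, without overlap. Rpl10, which joins the large subunit late in its assembly, was at 436, 212 and 189 CPM in skin and 399, 355 and 223 CPM in SDLNs and overlapped.

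**Figure D5:**
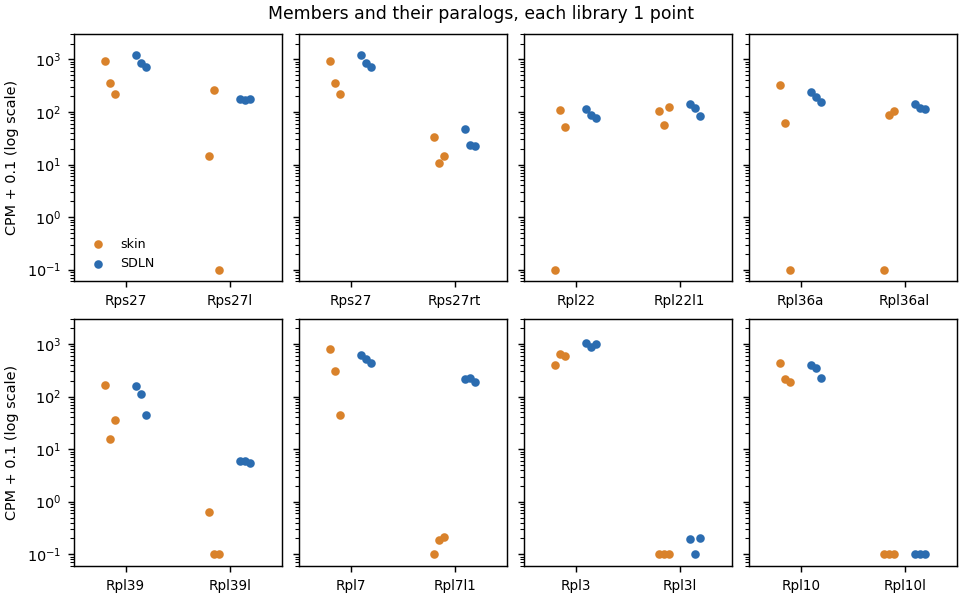
Level of 8 members and their paralogs in CPM plus 0.1 on a log scale, each point a library, skin in orange and SDLN in blue. Points at the bottom of a panel are libraries with 0 counts, as for Rpl22 and Rpl36al in skin A, and the skin points of Rpl7l1 and Rpl39l lie far below their SDLN points.

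Genes tied to the ribosome outside the rule were read the same way, from lists chosen with earlier results known. Of 3 ribosomal proteins with other symbols, none was called by edgeR (0 at an unadjusted p under 0.05), with a median log2 fold change of -0.72. Rack1, a small subunit scaffold, was at 542, 239 and 297 CPM in skin and 594, 415 and 627 CPM in SDLNs. Of 19 TOP mRNAs that encode no ribosomal protein, 3 were called lower (15.8%) and 0 higher, with a median of -0.77. All 19 had SDLN means of at least 100 CPM, a level at which 8.95% of genes were called lower. Pabpc1, the poly(A)-binding protein, fell by 1.40 on the log2 scale (edgeR adjusted p = 0.0224), from 1427 CPM ± 393 in SDLNs to 570 ± 224 in skin (SD, n = 3 each). Npm1, a nucleolar chaperone, fell by 1.40 as well (edgeR adjusted p = 0.0323), and the initiation factor Eif4b had 0, 0 and 1 counts in skin against a mean of 167 CPM in SDLNs. Eef1a1, the elongation factor that brings tRNA to the ribosome, was at 2666, 1283 and 1841 CPM in skin and 3579, 2817 and 2867 CPM in SDLNs (log2 fold change -0.75, edgeR adjusted p = 0.0701). Tpt1, also a TOP mRNA, was at 505, 584 and 549 CPM in skin and 465, 344 and 449 CPM in SDLNs, every skin library above every SDLN library, and was not called (log2 fold change 0.38, edgeR adjusted p = 0.69).

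Ribosome biogenesis genes make and process ribosomal RNA and assemble the subunits. Of 30 such genes, 10 were called lower (33.3%) and 0 higher, with a median log2 fold change of -1.96. Ncl, nucleolin, was at 57.6, 160 and 195 CPM in skin and 811, 1006 and 696 CPM in SDLNs and fell by 2.47 on the log2 scale (edgeR adjusted p = 0.0372). The other 9 called, among them the RNA polymerase I subunits Polr1a and Polr1b, did not exceed the floor in any skin library, with SDLN means of 39.0 to 84.2 CPM. Of 14 genes of the mTORC1 and Larp1 axis, 4 were called lower (Mtor, Tsc1, Tsc2 and Eif4ebp2, with SDLN means of 18.2 to 37.1 CPM) and 0 higher, with a median of -0.31. Larp1 had 1421, 0 and 11 counts in skin A, B and C and 37.2 to 48.5 CPM in SDLNs. Of 78 mitochondrial ribosomal protein genes, 20 were called lower (25.6%) and 0 higher, all 20 at the floor in every skin library, with a median of -0.92. Of all genes tested 45.3% were called lower, and these 3 lists were not matched to them in level.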

How the data were processed

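The table deposited by the authors holds raw counts, 1 row for each Ensembl gene, with no normalization. Per the submitters' processing notes, the authors trimmed reads with Trimmomatic 0.36, mapped them to GRCm38 with STAR 2.5.2b and counted them with featureCounts of Subread 1.5.2. The study's methods describe unique gene counts from reads inside exons and do not spell out how reads that match several places were treated. The strand setting is not given in the sources used here, and no molecular identifiers are described, so intervals and floors cover counting error only. Of the members, 59 have a named pseudogene, and reads that fit both cannot be told apart. The same holds for Rps27 and Rps27rt. Exons of 19 members, among them Rps18, Rpl5, Rpl35, Rpl28 and Rps25, overlap a gene on the other strand, and their values are uncertain there.

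Symbols came from GENCODE M21. The whole table was fitted with edgeR 4.0.16 in R 4.3.3 (filterByExpr, TMM, robust quasi-likelihood F test, tissue as the only term), with Benjamini-Hochberg adjustment over 13572 genes and a threshold of 0.05. CPM is relative to the library total, and CPM per kilobase uses the shortest principal coding transcript. The summed share and the subunit ratio were tested between tissues by exact two-sided permutation. Rps4l was not analysed here, and 1 member enters the counts and sums but is not reported here. Columns carry letters and titles carry numbers, so the fit has no block. The study's methods give 3 pooled samples in total for skin and lymph nodes, against 6 libraries in the table. Whether skin and SDLN pools came from the same mice is not stated, and the main tests treat the libraries as independent. The members and gene lists were chosen with earlier results of these data known. Named genes were those with the roles given above, the paralog pairs, the 3 with most CPM per kilobase in each tissue, those called, the 5 largest changes in each direction and the 5 most abundant members at the floor in 1 or 2 skin libraries. Alternatives were 4 other normalizations, DESeq2 1.42.0, limma 3.58.1 voom, other filters, drawing down, leaving out each library, a block by column letter and other numerators, denominators and members.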

Additional observations from a re-analysis of the deposited data

How the results depend on the processing

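Nothing in the labels says that columns of the same letter share mice. Deviations from the tissue means correlated at 0.020, -0.021 and 0.075 for letters A, B and C across all genes tested, and skin A and skin B did not correlate best with their own letter. Across the members tested the values were 0.019, 0.066 and 0.094. There skin B and skin C correlated best with their own letter, and skin A did not. With the letter as a replicate block, an alternative chosen after the data were seen, 4 members were called lower (Rpl39l, Rpl4, Rplp0 and Rps19) and 0 higher. The share of all genes called in that fit was not taken. The median log2 fold change there was -0.99 for members, against -8.05 for all genes tested. Rps18 (edgeR adjusted p = 0.10) and Rpl7l1 (edgeR adjusted p = 0.0652) were no longer called. Within letters the share differed (skin minus SDLN) by -1.41, -1.34 and -1.63 percentage points (exact two-sided sign-flip permutation p = 0.25, the smallest that 3 pairs allow). No member was called higher in skin under any alternative. The number called lower, 3 as reported, was 5 with TMMwsp, 1 with upper quartile scaling, 15 with DESeq2, 5 with limma voom, 1 with a minimum of 10 counts per library, 28 with skin B as the only skin library and 1 without Rps19bp1 and the paralogs (leaving out 1 library: 2 to 12). It stayed within 1.5 times in the other fits. The share of all genes called is given above for the main fit, DESeq2, the fits without a skin library and skin B alone. For the rest it was not taken, so their counts cannot be set against all genes. With a minimum of 10 counts only 66 members were tested. Upper quartile scaling turned the median of members to 5.90 while the median of all genes was -1.24, and turned single genes to 5.51 (Rps18), 5.76 (Rpl32), 5.55 (Rpl13), 5.65 (Rplp0), 6.95 (Rplp1), 6.57 (Rplp2), 1.69 (Rpsa), 6.32 (Rpl5), 6.21 (Rpl11), 6.78 (Rps27a), 6.35 (Rps6), 6.45 (Rps27), 4.51 (Rps14) and 4.13 (Rpl31). The cause was not tested. Under the other alternatives the median kept its sign (-0.70 to -1.19), while that of all genes ran from -8.05 to 0.077. Of the 19 genes followed singly, Rplp1 and Rps10, both near 0, changed sign there, and the other members were not followed. Rplp1 was at 0.016 with DESeq2 size factors, 0.012 with library size only, 0.015 with DESeq2 and 0.16 with skin B alone (leaving out 1 library: -0.37 to 0.019). Rps10 was at -0.072 with TMMwsp, -0.11 with voom, -0.058 without a filter, -0.12 with at least 10 counts, -0.055 with the replicate block and -0.68 with skin B alone (leaving out 1 library: -0.59 to 0.27). The subunit difference was -0.19 with skin B alone and moved by less than 1 SD otherwise, and the share and the number of members over the floor kept their direction and moved by less than 1 SD or 1.5 times. A p above the threshold does not show that levels were equal.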

Other observations

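The summed share of genes whose -ps symbol names them after a ribosomal protein gene overlapped between tissues. Of these 280 genes, 274 are annotated as pseudogenes and 6, among them Rpl9-ps6 and Rpl10-ps3, as protein-coding. They took 0.10%, 0.0798% and 0.0611% of the counts in skin A, B and C, and the SDLN libraries held 0.127%, 0.0764% and 0.0650%. The tissues overlapped, with means of 0.0804% ± 0.0197 and 0.0893% ± 0.0328 (SD, n = 3 each; exact two-sided permutation p = 0.70). Without the 6, the shares were 0.0821%, 0.0661% and 0.0547% in skin and 0.103%, 0.0611% and 0.0557% in SDLNs, and overlapped as well. Rpl9-ps6 had the highest mean CPM of the 280, with 243, 1565 and 391 counts in skin and 19844, 8017 and 3469 in SDLNs. Rps18-ps3, named after a member called lower in skin, had 86, 400 and 147 counts in skin and 8996, 4667 and 2001 in SDLNs. Raw counts of both genes do not compare levels, because library totals were far higher in SDLNs. Of the 280, 53 were over 3 counts in every library and 59 were at 0 in every library. Whether these counts come from the genes named or from reads of their parents was not tested.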
